A study of Homo sapiens with 9 samples.

Results

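The genes described here are 59 genes whose products build or steer the human spliceosome, and the measurements are the places where the RNA helicase DHX34 was crosslinked to their RNA. The 59 genes were chosen by an earlier reading of the same list of DHX34 peaks, so that the share of them with a peak is a description and no test is given for it. A peak belonged to a gene when at least 1 nt of it lay between the annotated start and end of that gene (GENCODE release 44, GRCh38). By this rule 17 of the 59 genes held 20 of the 2261 peaks in the list, of which 2062 lay in any gene and 1922 in a protein-coding gene.

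DHX34 sites were mapped by seCLIP (single-end enhanced crosslinking and immunoprecipitation), in which UV light joins a protein to the RNA it touches and the joined RNA fragments are pulled down and sequenced. All cells were HEK293T, an embryonic kidney line. In 5 libraries the cells were A5, a single CRISPR clone whose endogenous DHX34 carries GFP and FLAG at its C terminus, and anti-GFP was used for the pulldown. The other 4 of the 9 libraries came from the untagged parental cells, are titled NEG GFP INPUT and served as the control in peak calling. The deposited list gives for each peak a chromosome, start, end and a whole number from 1 to 4, and it gives no strand, no read count and no value per library. The depth behind each peak and the spread between replicates therefore cannot be given here, 1 clone stands for the tagged protein, and each position below was read along the strand of the annotated gene.

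The spliceosome removes introns from pre-mRNA. U1 snRNP first pairs with the 5' splice site at the end of an exon, SF1 and the U2AF proteins mark the branch point and the 3' splice site, U2 snRNP with its SF3A and SF3B complexes replaces SF1, and the U4/U6.U5 tri-snRNP then joins and is rebuilt with the Prp19 complex (NTC) into the active enzyme. SR proteins, which carry stretches of alternating arginine and serine, and hnRNP proteins decide which sites are used. Many of these genes also limit their own output through poison exons or retained introns, which place a premature stop codon and send the transcript to nonsense-mediated decay (NMD), a pathway in which DHX34 acts.

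Peaks that crossed the end of an exon made up the largest class, and their sequences are shown here to mark the annotated splice site under each. Reads were extended to a fixed length in peak calling, so bases near a peak's edge need not be ones that DHX34 touched. Each runs 5' to 3' along the gene, with exon bases of the main transcript (MANE Select) in capitals and intron bases in lower case, and was read from GRCh38. A first set of 4 peaks lay on exons rich in arginine and serine codons, namely those of LUC7L2 (chr7:139417576-139417758, plus strand), LUC7L3 (chr17:50745913-50746053 and chr17:50746546-50746740, plus strand) and PRPF4B (chr6:4037520-4037633, plus strand).
LUC7L2 exon 9: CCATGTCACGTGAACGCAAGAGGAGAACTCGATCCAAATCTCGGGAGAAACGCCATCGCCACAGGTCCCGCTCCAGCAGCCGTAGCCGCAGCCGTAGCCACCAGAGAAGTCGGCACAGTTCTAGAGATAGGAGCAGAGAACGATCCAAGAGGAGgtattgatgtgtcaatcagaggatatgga
LUC7L3 exon 8: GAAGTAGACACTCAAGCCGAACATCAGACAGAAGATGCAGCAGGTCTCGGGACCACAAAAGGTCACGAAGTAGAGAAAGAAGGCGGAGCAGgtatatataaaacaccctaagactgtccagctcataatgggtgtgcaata
LUC7L3 exon 9: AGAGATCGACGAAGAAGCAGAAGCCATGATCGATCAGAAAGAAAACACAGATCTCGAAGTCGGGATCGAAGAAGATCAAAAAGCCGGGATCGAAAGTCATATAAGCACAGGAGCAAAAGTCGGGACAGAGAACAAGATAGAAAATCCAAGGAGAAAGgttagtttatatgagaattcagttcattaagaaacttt
PRPF4B exon 3: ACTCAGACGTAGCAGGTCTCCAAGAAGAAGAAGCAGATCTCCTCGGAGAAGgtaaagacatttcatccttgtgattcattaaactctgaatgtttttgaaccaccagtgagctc

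The second set comes from further coding exons whose 3' end was crossed, with the long peak of SRSF1 left out because it reaches into a UTR, in SF1 (chr11:64776433-64776619, minus strand), RBM5 (chr3:50093723-50093923, plus strand), SF3A3 (chr1:37989769-37989872, minus strand), PRPF6 (chr20:63993413-63993536, plus strand), PRPF8 (chr17:1675109-1675256 and chr17:1655308-1655548, minus strand) and PNN (chr14:39179170-39179293, plus strand). In the second of the PRPF8 sequences the capitals are the whole of the exon, with intron on both sides.
SF1 exon 2: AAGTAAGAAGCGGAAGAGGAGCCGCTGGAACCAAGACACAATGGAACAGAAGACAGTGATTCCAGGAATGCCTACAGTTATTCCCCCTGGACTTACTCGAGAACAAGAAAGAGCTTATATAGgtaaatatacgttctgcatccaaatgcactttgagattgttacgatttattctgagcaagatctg
RBM5 exon 4: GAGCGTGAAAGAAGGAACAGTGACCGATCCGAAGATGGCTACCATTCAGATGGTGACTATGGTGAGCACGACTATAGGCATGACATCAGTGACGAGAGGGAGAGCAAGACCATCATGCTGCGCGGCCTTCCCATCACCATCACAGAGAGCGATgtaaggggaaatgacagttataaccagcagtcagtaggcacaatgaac
SF3A3 exon 1: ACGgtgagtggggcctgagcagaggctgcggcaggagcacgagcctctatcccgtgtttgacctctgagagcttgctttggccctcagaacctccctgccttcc
PRPF6 exon 4: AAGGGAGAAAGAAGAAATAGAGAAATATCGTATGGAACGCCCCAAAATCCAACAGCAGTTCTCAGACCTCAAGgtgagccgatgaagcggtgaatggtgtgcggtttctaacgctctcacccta
PRPF8 exon 20: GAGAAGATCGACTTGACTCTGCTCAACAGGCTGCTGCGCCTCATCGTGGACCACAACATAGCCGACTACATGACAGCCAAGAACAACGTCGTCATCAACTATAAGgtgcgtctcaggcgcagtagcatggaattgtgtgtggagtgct
PRPF8 exon 37: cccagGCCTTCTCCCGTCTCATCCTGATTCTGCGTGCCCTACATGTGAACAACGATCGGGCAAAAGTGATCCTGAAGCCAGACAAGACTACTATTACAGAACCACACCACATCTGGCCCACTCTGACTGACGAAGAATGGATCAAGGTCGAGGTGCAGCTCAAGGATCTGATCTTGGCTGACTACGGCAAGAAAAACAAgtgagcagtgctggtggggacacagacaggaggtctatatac
PNN exon 7: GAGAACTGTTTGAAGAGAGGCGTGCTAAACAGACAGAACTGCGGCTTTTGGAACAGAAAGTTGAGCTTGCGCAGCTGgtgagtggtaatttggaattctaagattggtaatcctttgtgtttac

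The last sequence, from HNRNPA2B1 (chr7:26198562-26198663, minus strand), is the peak that lay wholly inside an intron which some annotated transcripts retain, so all of its bases are in lower case.
HNRNPA2B1 intron 1: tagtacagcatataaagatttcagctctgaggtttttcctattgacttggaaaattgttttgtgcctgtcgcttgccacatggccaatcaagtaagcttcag

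Of the 59 splicing genes, 17 held a peak (28.8%, 95% Wilson interval 18.8 to 41.4%), beside 8.53% of the 19320 protein-coding genes. An exonic peak was found in 13 (22%, interval 13.4 to 34.1%; 2.82% of protein-coding genes) and a peak across an exon-intron boundary in 10 (16.9%, interval 9.48 to 28.5%; 1.43% of protein-coding genes). LUC7L3 and PRPF8 were the 2 genes with 2 or more peaks (3.39%; 1.33% of protein-coding genes). These intervals, and all others given here, cover counting over genes or peaks only, not the variation between libraries. The members were picked with their peaks known, and the direction of these shares is therefore not evidence of its own.

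**Figure D1:**
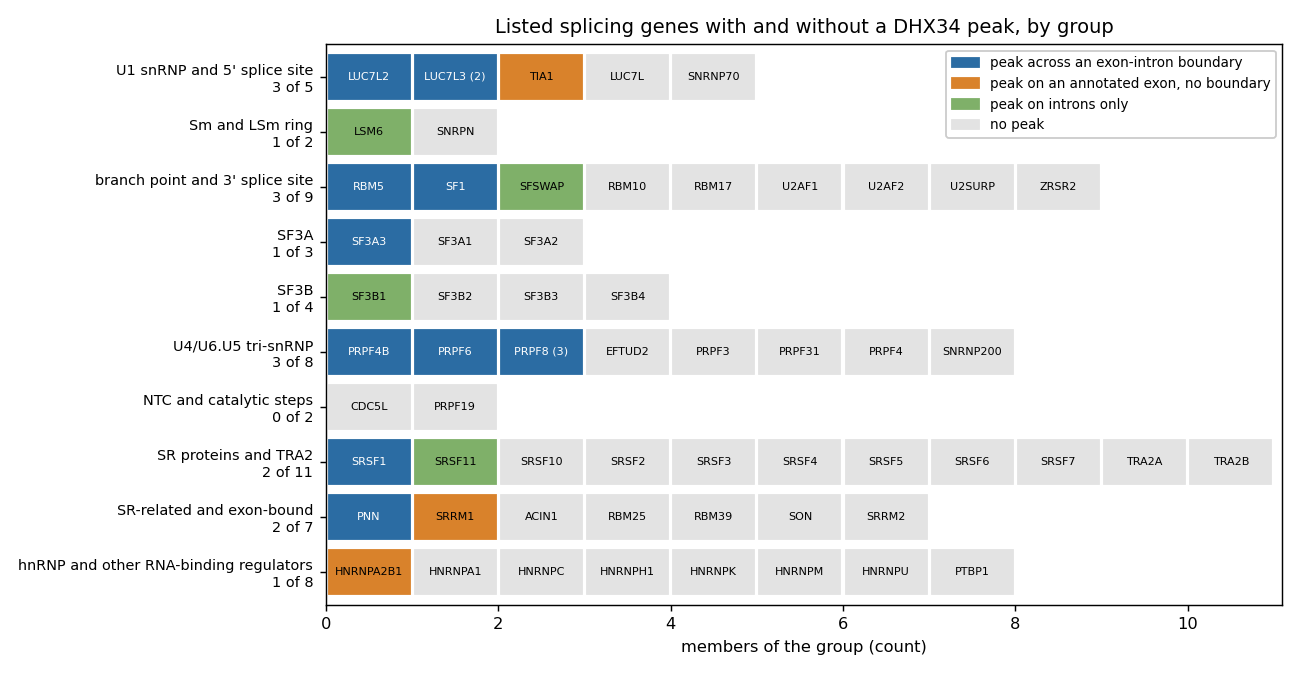
Each box is 1 of the 59 splicing genes, placed in its group (rows; the number with a peak of the number of genes is under the name), with a count of genes on the horizontal axis. Blue marks a gene with a peak across an exon-intron boundary, orange a peak on an exon of any annotated transcript without such a crossing, green a peak on introns only and grey no peak; numbers in brackets give the peaks where there was more than 1. Boxes with a peak stand in every group except the NTC, at 0 of 2.

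Among genes of U1 snRNP and 5' splice site choice, 3 of 5 held 4 peaks. LUC7L2 and LUC7L3 encode U1-associated proteins of the LUC7 family that influence which 5' splice sites are used. The LUC7L2 peak took in 154 nt of exon 9 of 10 and 29 nt of intron 9, and it also lay in the read-through gene FMC1-LUC7L2. In LUC7L3 peaks lay on consecutive exons, with 91 nt of exon 8 of 10 and 50 nt of intron 8 in the first, and 157 of the 161 nt of exon 9 and 38 nt of intron 9 in the second. The closest inner exon that NMD transcripts hold and no protein-coding transcript does lay 41993 nt away in LUC7L2 and 2479 nt away in LUC7L3. A poison exon that overlaps an exon of a protein-coding transcript would be missed by this rule.

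TIA1, an RNA-binding protein that helps U1 settle on weak 5' splice sites next to U-rich sequence, held a peak (chr2:70224923-70225030, minus strand) in intron 6 of its 13-exon main transcript. All 108 nt of it were exon in TIA1-209, a transcript of the annotation's retained_intron type, and in no other TIA1 transcript. An exon of NMD transcripts that no protein-coding transcript holds lay 298 nt from the peak, the shortest such distance over the 20 peaks. The peak also lay within C2orf42, a gene on the same strand, so it cannot be assigned to TIA1 alone. SNRNP70, a core protein of U1, and LUC7L had no peak.

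In the Sm and LSm rings, which clasp the snRNAs, LSM6 of the U6 ring had 1 peak and SNRPN had none. The LSM6 peak (chr4:146197209-146197311, plus strand) was 5674 nt downstream of the end of its 4-exon main transcript and lay in the 10161-nt intron of 1 longer transcript, 2632 nt from any exon. It is a peak of the gene's span rather than of the LSM6 coding transcript.

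Of the genes at the branch point and 3' splice site 3 of 9 held peaks, those of SF1 and RBM5 across the end of an exon and that of SFSWAP in an intron. SF1, the branch point-binding protein, had a peak over 122 of the 129 nt of exon 2 of 13 and 65 nt of intron 2. Those 65 nt were exon in transcripts of the retained_intron type, which did not cover the whole intron. RBM5, a regulator that acts on the spliceosome before its active sites form, had a peak over 153 of the 156 nt of exon 4 of 25 and 48 nt of intron 4. That intron is 6106 nt long, the longest of the 24 in the gene. The peak met 2 annotated 5' splice sites, that of exon 4 and an alternative one inside it, and all 201 nt were exon in at least 1 transcript of RBM5, retained-intron types included. RBM6, the neighbouring gene on the same strand, has transcripts that run into RBM5, and the peak lay on an RBM6 exon found only in NMD transcripts, which the list cannot tell apart from RBM5. SFSWAP, an SR-related regulator of alternative splicing, had a peak (chr12:131768684-131768788, plus strand) inside intron 13 of an 18-exon transcript, 2376 nt from the nearest exon.

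No peak fell in U2AF1, U2AF2, ZRSR2, U2SURP, RBM10 or RBM17. U2AF1, the small U2AF subunit that reads the 3' splice site, differs from the others in that most of it is present more than once in GRCh38: 5.81% of its exonic 50-nt windows and 8.64% of its 75-nt windows occurred once, against 83.1% to 100% of the 50-nt windows in each of the other 58 genes. The methods of the study kept reads with a unique position, and the part of this in the absence of a U2AF1 peak was not tested. The 5 genes next lowest were HNRNPA1 (83.1%), HNRNPK (84.4%), HNRNPC (86.4%), SRRM1 (86.4%) and SF3B4 (87.1%), and of these SRRM1 held a peak.

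In U2 snRNP 1 of 3 SF3A genes and 1 of 4 SF3B genes held a peak, both close to the start of the gene. The peak of SF3A3, a subunit of SF3A, held the last 3 nt of exon 1 of 17 and 101 nt of the 274-nt intron 1, and lay 203 nt from the 5' end of the gene. SF3B1, the SF3B subunit that clasps the branch point helix, had a peak (chr2:197434657-197434757, minus strand) wholly inside its 10997-nt first intron, 215 nt past the nearest exon and 322 nt from the 5' end of the gene. SF3A1, SF3A2, SF3B2, SF3B3 and SF3B4 had no peak.

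Genes of the tri-snRNP held the most peaks of any group, 5 in 3 of 8 genes, and 4 of these crossed a boundary. PRPF8, the U5 scaffold around the catalytic RNA, had 3. One took in 105 nt of exon 20 of 43 and 43 nt of intron 20. Another covered all 194 nt of exon 37 with 5 nt of intron 36 and 42 nt of intron 37, and so crossed both splice sites of that exon. The last (chr17:1653794-1653960, minus strand) lay with all its 167 nt inside the next exon, exon 38. PRPF6, which bridges U5 and U4/U6, had a peak over 73 of the 79 nt of exon 4 of 21 and 51 nt of intron 4. PRPF4B, a kinase of the tri-snRNP, had 51 nt of exon 3 of 15 and 63 nt of intron 3 in its peak. None of these 3 genes has an annotated inner exon that NMD transcripts hold and no protein-coding transcript does. PRPF4B has 2 annotated NMD transcripts and PRPF8 has 1, so poison exons outside this rule are not excluded.

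The other tri-snRNP genes, PRPF3, PRPF4, PRPF31, SNRNP200 and EFTUD2, had no peak. EFTUD2, the U5 GTPase, came closest of all 42 genes without one, with a peak 390 nt outside its span, followed by ACIN1 at 7909 nt and PTBP1 at 8863 nt. In the NTC and the factors of the catalytic steps, PRPF19 and CDC5L had no peak.

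SR proteins and TRA2 formed the largest group, and 2 of 11 had a peak. The peak of SRSF1 (chr17:58005338-58005817, minus strand) was the widest of the 20 at 480 nt. SRSF1 encodes an SR protein that binds exonic enhancers, and it limits its own level through splicing of its last coding region and 3' UTR. From 5' to 3' the peak held the last 17 nt of exon 3, all 200 nt of intron 3 and 263 nt of exon 4. Measured from the stop codon of the main transcript, SRSF1-201, it ran from -409 to 70 nt and thus covered 209 coding and 71 UTR nt. It met 3 annotated 5' splice sites and 1 annotated 3' splice site. Intron 3 is retained in SRSF1-204, annotated as an NMD transcript, and in SRSF1-205, annotated as protein-coding, and both have their own stop codon at -341 nt, inside the peak. SRSF1-207, an NMD transcript that splices within the 3' UTR, leaves exon 4 at 10 nt, and SRSF1-208 leaves it at -6 nt, and both of these sites were under the peak. SRSF1-209 joins a shortened exon 2, which ends at -1102 nt rather than -935 nt, directly to a site in the 3' UTR. Since SRSF1-209 skips exon 3 and the short forms of exon 4 used by SRSF1-207 and SRSF1-208, the peak counted as lying on a cassette exon. An unnamed gene of the annotation, ENSG00000266086, overlaps the peak on the same strand.

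**Figure D2:**
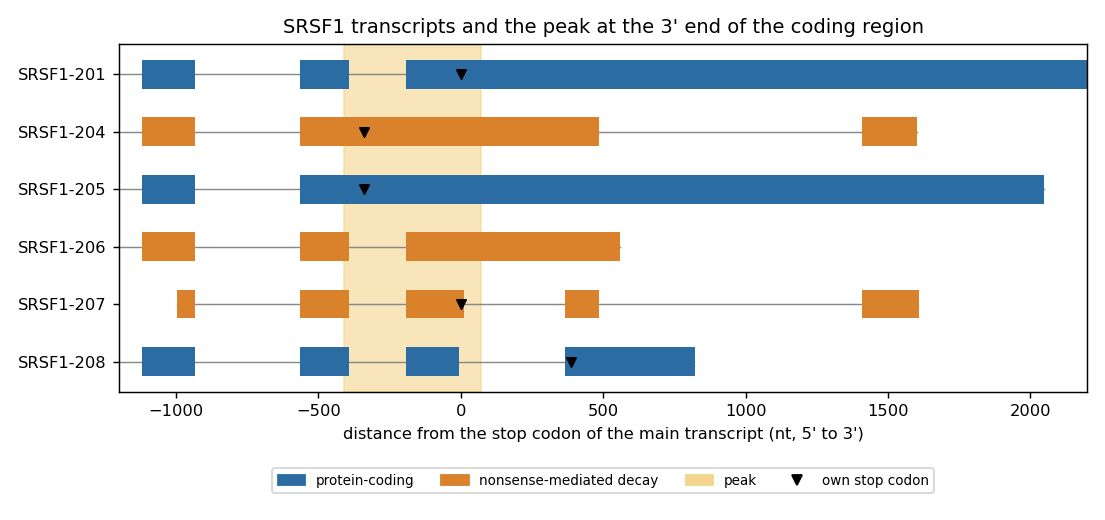
Annotated transcripts of SRSF1 (rows; boxes are exons, lines introns) along the distance from the stop codon of the main transcript SRSF1-201 in nt, cut at both ends of the axis. SRSF1-202, SRSF1-203 and SRSF1-209, the last of which gave the cassette call, are not drawn. The shaded band is the peak, from -409 to 70 nt, and triangles mark each transcript's own stop codon, which for SRSF1-206 lies beyond the left edge. The band covers the whole of intron 3 and the 5' splice sites that SRSF1-207 and SRSF1-208 use near the main stop codon.

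SRSF11, an SR-related protein that contacts U2AF, had a peak (chr1:70214714-70214816, plus strand) 6564 nt upstream of its main transcript. It lay in a 15831-nt intron of 4 longer transcripts, 6554 nt from any exon. SRSF2, SRSF3, SRSF4, SRSF5, SRSF6, SRSF7, SRSF10, TRA2A and TRA2B, several of which are known for poison exons, had no peak on them or elsewhere. Of the SR-related and exon-bound proteins 2 of 7 had a peak. SRRM1, a coactivator that joins SR proteins to the spliceosome, had a peak (chr1:24671393-24671497, plus strand) inside exon 16 of 17, which began 7 nt after the start of that exon and crossed no boundary. PNN (pinin), found at the rim of the exon junction complex, had 77 nt of exon 7 of 9 and 47 nt of intron 7 in its peak. That intron is 77 nt long, the shortest of the 8 in PNN. SRRM2, ACIN1, SON, RBM25 and RBM39 had no peak.

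Among hnRNP proteins and other RNA-binding regulators 1 of 8 had a peak. HNRNPA2B1, an abundant nuclear RNA-binding protein that influences splice site choice, had it in intron 1 of 11 exons, 2866 nt from the 5' end of the gene. All 102 nt lay in intron that HNRNPA2B1-204 and HNRNPA2B1-206, both of the retained_intron type, keep as exon, and the other 47 of the 49 annotated transcripts have it in an intron. HNRNPA1, HNRNPC, HNRNPH1, HNRNPK, HNRNPM, HNRNPU and PTBP1 had no peak.

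Across the 20 peaks, 16 touched an exon of any annotated transcript (80%, interval 58.4 to 91.9%), beside 30.5% of the 1922 peaks in protein-coding genes. The 4 on introns only (20%, interval 8.07 to 41.6%) were those of LSM6, SFSWAP, SF3B1 and SRSF11. TIA1 and HNRNPA2B1 counted as exonic through transcripts of the retained_intron type alone. A boundary was crossed by 12 (60%, interval 38.7 to 78.1%; 16.3% of all), and by 75% of those on an exon (interval 50.5 to 89.8%; 53.6% of all). The peaks of LUC7L2, TIA1, RBM5 and SRSF1 also lay in a further gene, and without these 4 there were 9 boundary peaks among 16. Of the 12, SRSF1 and exon 37 of PRPF8 crossed splice sites of both kinds, and the other 10 crossed a 5' splice site only (10 of 10, lower Wilson bound 72.2%; 80.2% of the 268 peaks in protein-coding genes that crossed 1 kind). The intervals are no test of these shares against those of all peaks, because the 20 peaks lie in genes chosen with their peaks known. Some also lie in the same gene, 3 in PRPF8 and 2 in LUC7L3, and are not independent.

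The 20 peaks were also wide. Their widths ran from 101 to 480 nt with a median of 124 nt, against 100 to 1057 nt and a median of 103 nt over the 2261 peaks, and 12 were wider than 110 nt (60%, interval 38.7 to 78.1%; 23.3% of all). The part of width in the boundary share was not tested. With the last 50 nt of every peak removed, 7 of the 20 crossed a boundary (35%; 9.42% of all peaks so trimmed), and with the central 50 nt alone 5 did (25%; 7.13% of all). All 20 had a fourth-column value of 1, and values of 2 or more were held by 2.29% of all peaks in protein-coding genes.

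**Figure D3:**
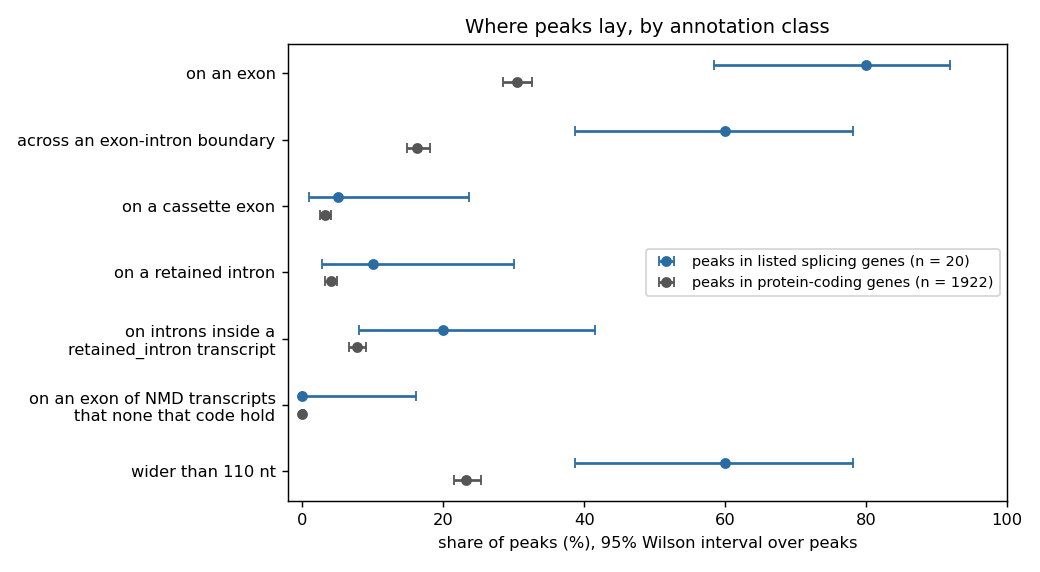
Share of peaks (horizontal axis, %) in each annotation class (rows), in blue for the 20 peaks of the listed splicing genes and in grey for the 1922 peaks in protein-coding genes; points are shares and bars 95% Wilson intervals over peaks, with no replicate error. The blue points lie farthest from the grey ones for exons, boundaries and widths above 110 nt. The genes were chosen with their peaks known, so the gap or overlap of the bars is no test.

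Scored against the 1 gene each peak was assigned to, no peak met a poison exon by the annotation rules used here. These rules leave out any exon that overlaps one of a protein-coding transcript. An exon of that gene found only in NMD transcripts was under 0 of the 20 peaks (upper Wilson bound 16.1%) and 0% of the 1922, a count that leaves out the RBM6 exon under the RBM5 peak. With a wider definition, an exon of NMD transcripts that no protein-coding transcript holds, the count was again 0 of 20, and 0% of the 1922. The 59 genes carry 51 such exons in 27 genes, of which 12 lie in 8 of the genes with a peak and 39 in 19 of the genes without one. A cassette exon was met by 1 peak, that of SRSF1 (5%, interval 0.888 to 23.6%; 3.23% of all), and a wholly retained intron by 2, those of SRSF1 and HNRNPA2B1 (10%, interval 2.79 to 30.1%; 4.01% of all). The cassette call fell to 0 when at least 50% of the peak had to lie on the exon or when peaks on a further gene were left out. The retained introns fell to 1 by the midpoint of the peak, with coding and NMD transcripts only, with basic transcripts only and without peaks on a further gene. Intron bases inside a transcript of the retained_intron type were met by 4, in TIA1, SF1, RBM5 and HNRNPA2B1 (20%, interval 8.07 to 41.6%; 7.8% of all), a count that fell to 0 with basic transcripts only and to 2 without peaks on a further gene. For these classes too the intervals are no test against the shares of all peaks.

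In the median, peaks that crossed a 5' splice site only held about as much intron as such peaks of all protein-coding genes. The 10 peaks that crossed a 5' splice site only held 29 to 101 nt of intron with a median of 49 nt, and 8 of them held 30 to 70 nt (80%, against 57.4% of 197 such peaks at main transcripts of protein-coding genes, whose median was 48 nt). LUC7L2 at 29 nt and SF3A3 at 101 nt were the 2 outside that range. The window of 30 to 70 nt is descriptive only, and 10 peaks are few. In peak calling each read was extended to a fixed length, which can carry a peak past an exon's end. The part of this in the intron reach was not tested. On the exon side 4 of the 10 began within 10 nt of the exon's first base, at 4 nt in LUC7L3 exon 9, 7 nt in SF1, 3 nt in RBM5 and 6 nt in PRPF6, so that these peaks covered nearly the whole exon (40%, against 7.11% of the 197). In that order these 4 peaks were 195, 187, 201 and 124 nt wide. The part of peak width in this share was not tested. The exons had a median length of 158.5 nt (79 to 284 nt), with 145 nt over the 197. The introns that followed ranged from the 77 nt of PNN to the 6106 nt of RBM5.

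**Figure D4:**
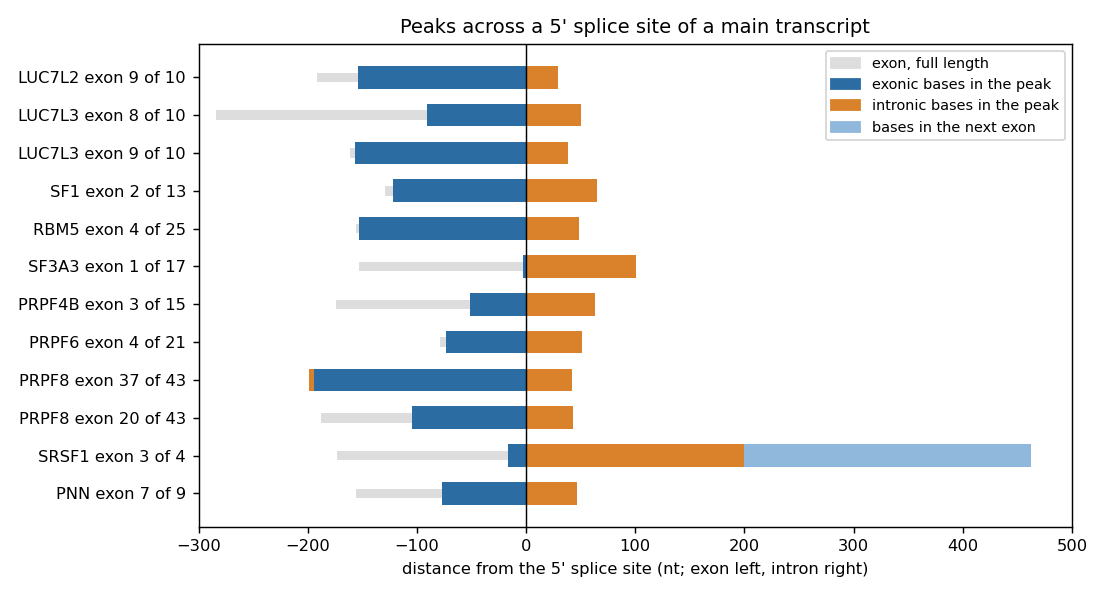
The 12 peaks that crossed a 5' splice site of a main transcript (rows), aligned at that site, with distance in nt on the horizontal axis; exon bases of the peak are blue, intron bases orange, and the thin grey bar is the full exon. Most peaks end 29 to 65 nt inside the intron, SF3A3 reaches 101 nt, and SRSF1 runs through its 200-nt intron into the next exon.

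The letters of the crossed splice sites were compared with those of the other sites in these genes. The 3 exon and 6 intron bases at each of the 12 crossed sites were set against CAGGTAAGT, the word that pairs fully with U1 snRNA. They matched at 5 to 7 of 9 positions with a median of 6, and all 12 introns began with GT. Over all 799 5' splice sites of the 59 main transcripts the matches ran from 2 to 9 with the same median of 6, and 45.2% had 7 or more against 41.7% of the 12. The lowest was LUC7L2 exon 9 at 5, and 7 was reached by LUC7L3 exons 8 and 9, SF1, SRSF1 and PNN.

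Coding peaks in several of these genes lay on the stretch that encodes arginine and serine repeats. Among the 13 peaks with 10 or more whole codons, 5 had 30% or more arginine or serine codons (38.5%), beside 7.17% of the 307 such peaks in protein-coding genes. PRPF4B had 13 of 16 codons (81.2%) under its peak and 23.8% in its whole coding sequence. LUC7L3 had 21 of 29 (72.4%) on exon 8 and 30 of 52 (57.7%) on exon 9, against 28.5% in the whole. LUC7L2 had 35 of 50 (70%) against 29.8%, and SRSF1 had 42 of 69 (60.9%) against 28.6%. The plot of codon shares sets each peak beside the coding sequence it lies in.

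Not every arginine-serine protein showed this. SRRM1, with the highest share in its coding sequence of the genes with a coding peak (32.6%), had 0 of 34 arginine or serine codons under its peak, which was instead 84.8% purine. PNN had 12% under its peak against 25.2% in the whole. The other shares were 25.5% in RBM5, 17.5% in SF1, 16.7% in PRPF6 and 16.4%, 6.25% and 5.71% on exons 38, 37 and 20 of PRPF8. Of the 22 peaks past 30% over all genes, 2 lay in CLASRP and CLK2, which belong to a wider list of splicing genes described last, and 15 lay in genes of neither list, 3 of them in EIF3A, a subunit of a translation initiation factor. Genes of this list are rich in such codons to begin with, and the threshold of 30% was set after the sequences had been seen.

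**Figure D5:**
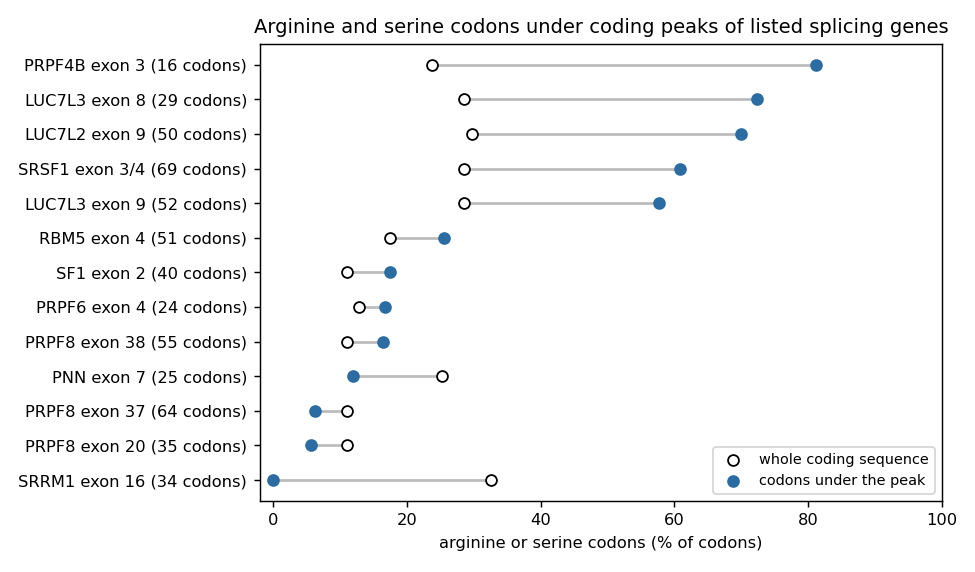
Share of arginine or serine codons (horizontal axis, %) among the whole codons under each of the 13 coding peaks with 10 or more of them (filled points) and in the whole coding sequence of the same main transcript (open points); rows are peaks, with the number of codons in brackets. PRPF4B, LUC7L3, LUC7L2 and SRSF1 stand between 57.7% and 81.2% under the peak, above their coding sequences, and SRRM1 stands at 0%.

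In base composition the peaks of the splicing genes were a little less rich in G and C, with a median GC content of 45.2% (28.7 to 63.8%) against 50.5% over all 1922, and close to them in purines, at a median of 54.2% and 53.9%. Hexamers were looked for on the strand of the gene. GAAGAA, the core of purine-rich exonic enhancers, was in 6 of the 20 (30%), namely LUC7L3 exon 9, PRPF4B, PRPF6, PRPF8 exon 37, SRSF11 and SRRM1, and in 9.37% of all peaks. GAGGAG was in 2 (10%), LUC7L2 and SF1, and in 15% of all. GGAGGG was in 0 of 20 and in 16.4% of all. Bases 6 to 15 of the peaks held 28.5% G on average, against 37.6% over all peaks. The 20 peaks were more often on an exon (80% against 30.5% of all) and wider than 110 nt (60% against 23.3%). The part of these differences in composition and hexamer shares was not tested, and the SRSF11 peak with GAAGAA lay on no exon.

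The genes with a peak had a median length of 36655 nt (6428 to 88658 nt), and the 42 without had 24427.5 nt (3219 to 155087 nt). The exonic length was 7994 nt and 6534.5 nt in the median, and the median number of exons was 13 in both. The part of gene length in which genes had peaks was not tested, and RNA levels are not in the list.

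A wider list of 152 other splicing genes, by the same groups, held 22 peaks in 18 genes (11.8%). An exonic peak was found in 14 (9.21%) and a boundary peak in 12 (7.89%), shares between those of the 59 and those of all protein-coding genes. By group there were none in 14 further tri-snRNP genes, 13 further Sm and LSm genes, 3 further SF3B genes or 4 further SR proteins. There was 1 in 27 NTC and catalytic-step genes, CACTIN, on exon 10 of 10 and across a 5' splice site of another transcript. RBM6 had 3 peaks, with that shared with RBM5 counted. SR-related genes held them in 5 of 31, namely CLASRP (2 peaks, across the ends of exons 7 and 19), SCAF4 (2, in introns 1 and 2), AKAP17A (exon 4 end), CLK2 (exon 3 end) and CDK12 (on no exon). In hnRNP proteins and like regulators there were 10 of 44, among them boundary peaks in HNRNPUL1, SFPQ, PSPC1 and DDX17, exonic ones without a boundary in PCBP2 and RBM4, and intronic ones in CELF1 and RBM14. Of the 14 boundary peaks in this wider list, 13 crossed a 5' splice site only, 0 a 3' splice site only, and SFPQ crossed both kinds at exons 8 and 9. CLASRP and SFPQ had the 2 peaks with a fourth-column value of 3, a level that no peak of the 59 genes reached.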

How the data were processed

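According to the study's methods, the authors removed adapters (cutadapt), read molecular identifiers (umi_tools), aligned to GRCh38 (bowtie2), kept unique, deduplicated reads outside transposable elements and called peaks with macs2 on the tagged libraries against the controls, each read extended to a fixed length. bowtie2 does not split reads over introns, and extension can carry a peak past an exon's end. The deposited list was taken to be the union over replicates. The methods also describe a later, smaller selection by reads in and around each peak, supported by few reads and in a minority of cases by more than 1 replicate; that selection was not used here. The last column of the deposited list was used as a score of unstated meaning deposited by the authors. With no count per library, no replicate could be compared or left out.

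Peaks were compared with GENCODE release 44 in Python 3.11.15 (SciPy 1.17.1, NumPy 2.4.6, matplotlib 3.10.9); 2257 peaks matched GRCh38 chromosome names, and 0 ran past an end. The authors used an older Ensembl annotation, whose transcript models can differ. Any overlap of 1 nt counted. Exon and intron classes used every annotated transcript of a gene, and exon numbers came from MANE Select or the canonical transcript. A background peak in several genes was assigned to 1, by overlap, then exonic overlap. A cassette exon is skipped whole by an intron of another transcript, and a retained intron lies whole inside an exon of another. No test was made, and shares have 95% Wilson intervals. The classification was checked on made-up gene models with known answers.

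Members and lists were chosen with earlier results of these data known. Each of the 59 genes is named, some genes of the wider list are not reported here, and sequences were printed for peaks of at most 300 nt across a boundary or on a cassette exon or retained intron, outside UTRs. The partial retained-intron class, the wider poison-exon class, sequence uniqueness, splice site words, hexamers, exon edges and arginine and serine codons were added after the data were seen.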

Additional observations from a re-analysis of the deposited data

How the results depend on the processing

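The counts were repeated under 10 other settings, and 79 of the values stayed within 1.5 times the count given above and 22 did not. Some of the 79 could not move, such as gene and peak counts when only the choice of transcripts changed. The tally is therefore not a measure of stability. Since every peak of the listed genes had a fourth-column value of 1, a minimum of 2 left 0 genes with a peak, and thus 0 peaks, 0 on an exon, 0 across a boundary, 0 across a 5' splice site only, 0 on a cassette exon and 0 on a retained intron, by construction. Shorter peaks crossed fewer boundaries: the central 50 nt gave 5 boundary peaks, with 4 across a 5' splice site only and 1 across a 3' splice site only, and removal of the last 50 nt gave 7, with 5 and 1. Removal of the first 50 nt gave 11. The SRSF1 cassette call was lost, leaving 0, when at least 50% of the peak had to lie on the exon and when peaks on a further gene were left out. The retained introns fell to 1 by the peak's midpoint, with coding and NMD transcripts only, with basic transcripts only and without peaks on a further gene. Leaving out those peaks gave 13 genes and 16 peaks. The looser retained_intron count of 4 fell to 0 with basic transcripts and to 2 without peaks on a further gene, and both poison-exon counts were 0 in every setting run. A midpoint cannot cross a boundary, and 1 transcript per gene has no cassette exon or retained intron, so these were not run. No paired analysis was possible because the list holds no value per library, and the depth behind each peak is unknown.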
